A study of Homo sapiens with 12 samples.

Results

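MDA-MB-231 cells in which SIRT1 and IGF2BP2 had both been knocked down (double KD) were set against control cells of the same line, across every gene measured. The comparison rests on 6 of the 12 RNA-seq libraries of the series, 3 per group, and its members were taken from the group labels, not from expression values. Double KD cells carried short hairpin RNAs (shRNAs) against SIRT1 and IGF2BP2. Control cells carried a sham-targeting shRNA, so that the control libraries too come from infected, drug-selected cells. The other 6 libraries, from SIRT1 KD and IGF2BP2 KD cells, entered the fit for its estimate of the spread and are given beside the double KD where named genes are described. Lentivirus packaged in HEK-293T, an embryonic kidney line, carried the hairpins into the cells in the presence of Polybrene at 8 µg/mL. Every group grew in RPMI-1640 with 10% serum under puromycin at 2.0 µg/mL, as stable populations of a single cell line, which limits how far the values speak for other breast tumours. Each condition was run 3 independent times per the series' design text. The labels do not say if runs were infected separately, and p-values measure only the spread among the libraries, which may be technical.

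MDA-MB-231 is an established triple-negative line of human breast cancer with mesenchymal traits, known for a high output of cytokines and matrix-modifying proteins. SIRT1 is an NAD-dependent deacetylase that removes acetyl groups from histones, transcription factors and other proteins. IGF2BP2 is an RNA-binding protein of the oncofetal IGF2BP family, which binds messenger RNAs, many of them marked by N6-methyladenosine, and favours their stability and translation. Loss of SIRT1 can thus act on transcription and signalling, and loss of IGF2BP2 on the fate of the transcripts it binds.

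Values below are normalised counts, that is, reads per gene divided by a size factor for the library, as the authors deposited them. A gene was called higher or lower in double KD cells when limma's moderated test on log2(normalised count + 1) gave a Benjamini-Hochberg adjusted p under 0.05 over the 17576 genes tested. Adjusted p-values come from that fit, errors after a log2 fold change are standard errors (SE), and fold changes of low genes are understated on this scale. Libraries held 15243152 to 22509142 reads in genes, with double KD replicate 2 the shallowest of all 12 and the other 11 at 19522606 or more. That library also stood apart in composition. Its mitochondrially encoded share was 1.18% of reads, against 1.99% to 2.57% in the other 11, and RN7SL1, the RNA of the signal recognition particle, took 3.37% of its reads, against 1.66% to 2.07%. Between its 2 partners, replicate 1 was at least 2-fold above replicate 3 in 417 tested genes and as far below it in 127. In double KD replicate 2 itself, 304 lay at least 2-fold above and 501 at least 2-fold below the log2 mean of those partners. Counts over gene lists are therefore also given without double KD replicate 2, as is the log2 fold change of each gene given a value below and called with all libraries that moved by at least 0.15 or lost its call without it. The mesenchymal markers fixed for the line, VIM, CD44, AXL, CAV1, MSN and S100A4, were abundant in both groups, with VIM at 20429, 17639 and 23655 in the double KD libraries, against 20052, 20416 and 21346 in the control libraries, while SPARC was low in both, against its place on that list. Of 6 markers fixed as low or absent, ESR1 and PGR were too low to be tested. The 3 that were tested were all lower (median -0.59), beside 17.5% of all genes tested. The 6 summed to 281 to 355 normalised counts in the double KD libraries, against 440 to 472 in the control libraries. Of 10 epithelial markers 7 were tested, 1 higher and 2 lower, or 1 and 6 without replicate 2. They summed to 26475 to 38360 in the double KD libraries, highest in replicate 2, against 31965 to 32741. Of 10 immune markers 1 was high enough to test, and together they summed to at most 13.4 normalised counts in a double KD library and 35.4 in a control library.

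Both targeted transcripts were lower in double KD cells, and IGF2BP2 by more than SIRT1. SIRT1 measured 396, 380.2 and 436 in the double KD libraries, against 799, 840.5 and 863 in the control libraries. The groups did not overlap, and the log2 fold change was -1.05 ± 0.08 (adjusted p = 1.08e-08), or -1.0 without replicate 2. IGF2BP2 measured 992, 715 and 884 in the double KD libraries, against 3045, 3055 and 3126 in the control libraries. Replicate 2 was the lowest library, the groups lay far apart, and the log2 fold change was -1.84 ± 0.09 (adjusted p = 9.36e-11), or -1.71 without replicate 2. In the single knockdowns, which share the control libraries, SIRT1 differed from control by -0.66 on the log2 scale in SIRT1 KD cells. Its value of -0.20 in IGF2BP2 KD cells was not called (adjusted p = 0.102). IGF2BP2 differed from control by 0.29 in SIRT1 KD cells and -2.02 in IGF2BP2 KD cells. Lower RNA per cell and fewer cells that make a transcript cannot be told apart in these bulk libraries, here or below.

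Of the 17576 genes tested, 6018 (34.2%) differed between double KD and control cells, 2939 (16.7%) higher and 3079 (17.5%) lower. Among the larger changes falls outnumbered rises, with 542 genes (3.08%) lower and 158 (0.899%) higher by at least 2-fold. Of protein-coding genes 20.5% were higher and 21% lower, and of lncRNA genes 5.69% were higher and 8.53% lower. Without replicate 2, 7068 genes (40.2%) were called, 3450 (19.6%) higher and 3618 (20.6%) lower. Of the 6018 genes, 5515 (91.6%) were called in the same direction without it, 503 were not, and none changed direction, while 1553 genes were called only without it. Of the genes past 2-fold, 152 of those higher and 506 of those lower kept their call. Leaving out 1 of the 6 libraries at a time gave 2268 to 3450 genes higher and 2442 to 3618 lower.

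**Figure D1:**
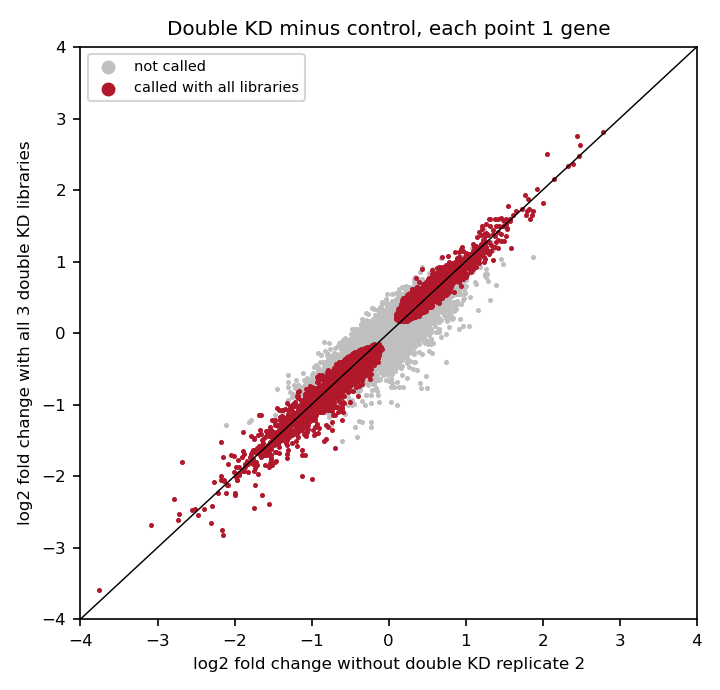
Log2 fold change of double KD minus control with all 3 double KD libraries (vertical axis) against the same without double KD replicate 2 (horizontal axis), each point 1 of 17576 genes. Red points are the 6018 genes called with all libraries, none of which lies on the other side of 0 without replicate 2; grey points were not called, and the line marks equality.

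The largest falls in double KD cells included the secreted signals IL24, AREG, CXCL8, IL6, IL11 and TGFB2 and the collagen crosslinking enzyme LOX. They were chosen as the 14 protein-coding genes of largest fall that averaged at least 100 normalised counts, did not overlap between groups and were called also without replicate 2, so their lack of overlap is a result of the choice. IL24, which encodes interleukin 24, a cytokine of the IL-10 family, measured 92.6, 108 and 90.7 in the double KD libraries, against 549, 521 and 556 in the control libraries, with all 3 double KD libraries at about the same low level (-2.47 ± 0.10, adjusted p = 4.28e-12). AREG, which encodes the EGF receptor ligand amphiregulin, measured 393, 434 and 399.8 in the double KD libraries, against 2431, 2103 and 2258 in the control libraries. Its log2 fold change was -2.46 ± 0.08 (adjusted p = 4.07e-13), and the double KD libraries were close together. CXCL8, the neutrophil chemoattractant interleukin 8, measured 352, 376 and 459 in the double KD libraries, against 1603, 1767 and 1815 in the control libraries, which gave -2.13 ± 0.10 (adjusted p = 3.20e-11). Double KD replicate 3 was the highest of its group and still far below each control library.

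Interleukin 6, the inflammatory cytokine that signals through gp130, fell with IL6 at 222, 202 and 246 in the double KD libraries, against 897, 936 and 935 in the control libraries (-2.05 ± 0.09, adjusted p = 1.44e-11). IL11, a cytokine of the same family, measured 126, 170.2 and 113 in the double KD libraries, against 525, 585 and 513 in the control libraries (-2.00 ± 0.12, adjusted p = 7.14e-10, or -2.17 without replicate 2), with replicate 2 the highest of the double KD libraries. TGFB2, which encodes the growth factor TGF-β2, measured 1084, 845 and 1125 in the double KD libraries, against 4811, 4495 and 5009 in the control libraries and had its lowest value in replicate 2. Its log2 fold change was -2.24 ± 0.09 (adjusted p = 5.95e-12), or -2.11 without that library. LOX, the lysyl oxidase that crosslinks collagen and elastin, measured 514, 545 and 610.1 in the double KD libraries, against 2686, 2519 and 2644 in the control libraries (-2.23 ± 0.07, adjusted p = 4.07e-13). The LOX values of each group lay within a narrow band.

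The remaining falls by this rule spanned the cell surface, the cytoskeleton and lipid modification. SDC2, a heparan sulfate proteoglycan of the surface, measured 93.5, 133 and 86.6 in the double KD libraries, against 605, 597 and 591 in the control libraries, with replicate 2 the highest of the double KD libraries (-2.53 ± 0.16, or -2.72 without it). SORBS2, an adaptor between actin and adhesion proteins, measured 89, 52.1 and 91.7 in the double KD libraries, against 371, 343 and 379 in the control libraries, and here replicate 2 was the lowest (-2.26 ± 0.17, or -2.00 without it). ICMT, the methyltransferase that completes the processing of prenylated proteins such as RAS, measured 354, 414 and 341 in the double KD libraries, against 1403, 1632 and 1570.0 in the control libraries (-2.05 ± 0.09). RPL7L1, a protein related to ribosomal protein L7, measured 2421, 2775 and 2468 in the double KD libraries, against 9718, 10148 and 9770.1 in the control libraries (-1.95 ± 0.06), with both groups tight. IGFBP1, a secreted binder of insulin-like growth factors, changed by -2.08 (-2.26 without replicate 2), FPR1, a receptor for formylated peptides, by -2.05, and CEMIP, which takes part in the breakdown of hyaluronan, by -1.96. All 14 falls were between -2.53 and -1.95 on the log2 scale.

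The largest rises, chosen by the same rule, were led by the receptor of a cytokine that fell. IL6R, which encodes the ligand-binding chain of the interleukin 6 receptor, measured 213, 229 and 234 in the double KD libraries, against 27.8, 28 and 39.5 in the control libraries. It averaged 225 ± 11.1 in double KD cells and 31.8 ± 6.72 in control cells (SD, n = 3 each), and the log2 fold change was 2.81 ± 0.16 (adjusted p = 2.33e-10), or 2.79 without replicate 2. GOLGA7B, a protein that assists palmitoylation, measured 279, 384 and 297 in the double KD libraries, against 55.5, 48.6 and 47.2 in the control libraries, highest in replicate 2 (2.63 ± 0.17, adjusted p = 1.65e-09). NR6A1, an orphan nuclear receptor known from germ cells and early embryos, measured 879, 887 and 990.3 in the double KD libraries, against 171, 191 and 171 in the control libraries (2.36 ± 0.08, adjusted p = 1.19e-12). DISP2, of the Dispatched family of membrane proteins, measured 466, 505 and 543 in the double KD libraries, against 109, 128 and 103 in the control libraries (2.15 ± 0.10, adjusted p = 4.00e-11). In NR6A1 and DISP2 the 3 double KD libraries were close together.

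HMGA2, an architectural chromatin protein of embryonic and tumour cells, measured 3835, 2652 and 4093 in the double KD libraries, against 995, 957 and 995 in the control libraries. Replicate 2 was the lowest double KD library for HMGA2, and the log2 fold change of 1.82 ± 0.11 became 2.01 without it. A trio of rises belonged to the control of messenger RNA decay and silencing. ANKRD52, a regulatory subunit of protein phosphatase 6 that acts on Argonaute 2, measured 8180.2, 9502 and 9244 in the double KD libraries, against 2623, 2888 and 2723 in the control libraries (1.71 ± 0.06, adjusted p = 3.45e-12). DCP2, the decapping enzyme, measured 4992, 5575 and 5465 in the double KD libraries, against 1667, 1695 and 1751 in the control libraries (1.65 ± 0.07, adjusted p = 1.44e-11). BTG2, an antiproliferative protein that promotes deadenylation, measured 281, 343 and 304 in the double KD libraries, against 91.9, 112 and 101 in the control libraries (1.60 ± 0.11, adjusted p = 4.49e-09). For these 3 genes the double KD libraries lay close together and far above the controls.

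Presynaptic genes SYT1, a calcium sensor of vesicle release, and PCLO, a scaffold of the active zone, changed by 1.74 and 1.65 (1.86 without replicate 2). MAPK11, the p38β kinase, changed by 1.60, or 1.38 without replicate 2, which was its highest library. COL1A1, the α1 chain of type I collagen, measured 536, 994 and 571 in the double KD libraries, against 218, 229.7 and 219.9 in the control libraries. Replicate 2 again stood far above its partners, and the log2 fold change of 1.59 ± 0.17 became 1.31 without it. ITGB2, the β2 chain of leukocyte integrins, changed by 1.58 and COL17A1, a collagen of hemidesmosomes, by 1.57. All 14 rises were between 1.57 and 2.81 on the log2 scale.

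**Figure D2:**
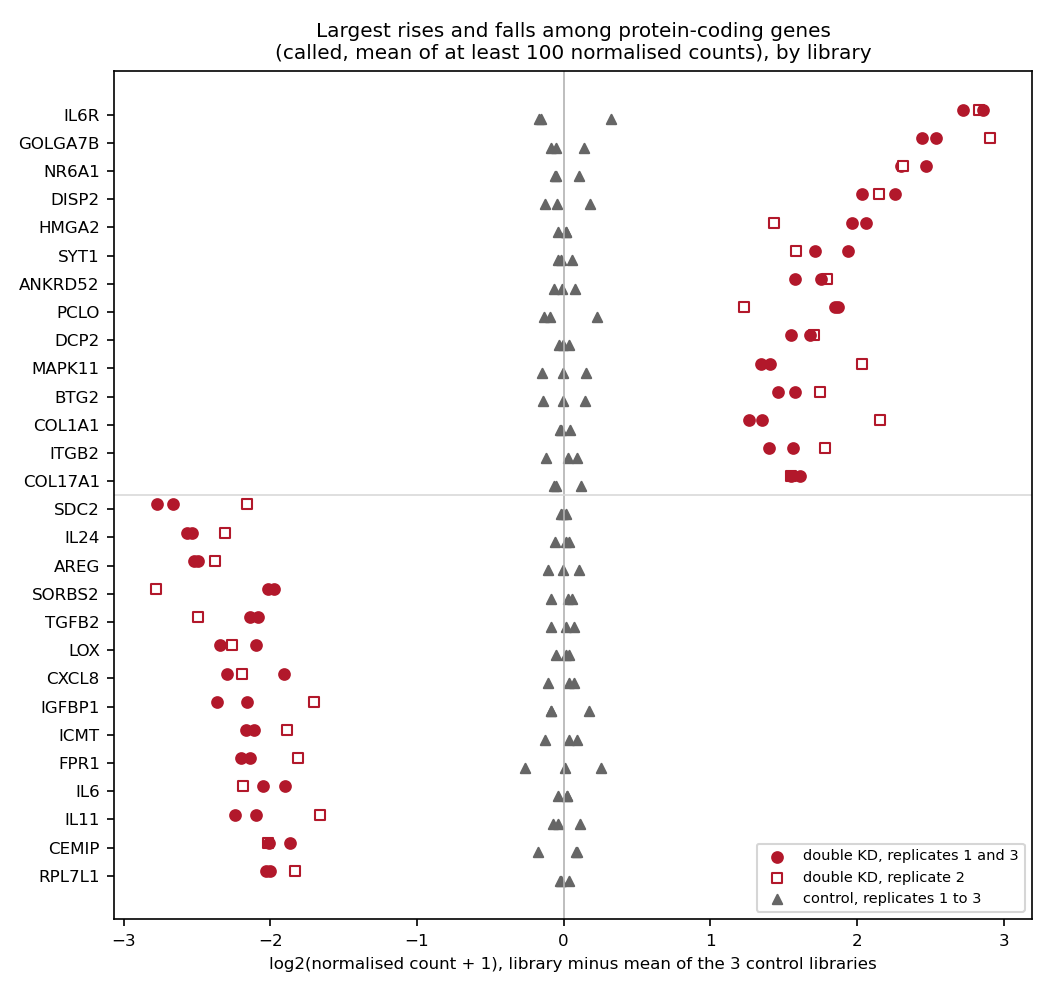
Each library's log2(normalised count + 1) minus the mean of the 3 control libraries, for the 14 largest rises (upper) and 14 largest falls (lower) chosen by the rule in the text. Filled red circles are double KD replicates 1 and 3, open squares double KD replicate 2 and grey triangles the control libraries. Replicate 2 leaves the other double KD libraries most visibly in COL1A1, MAPK11, PCLO, HMGA2 and SORBS2. The rule admits only genes without overlap, so no double KD library can fall among the controls here.

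Beyond these genes, lists of genes grouped by function are described by how many tested members were called in each direction and by their median log2 fold change, to be read against 16.7% higher and 17.5% lower over all genes tested and a median of 0.01. Counts without replicate 2 are to be read against the 19.6% higher and 20.6% lower over all genes in that fit. Most listed genes of the unfolded protein response and of the integrated stress response fell. These responses raise chaperones, degradation factors and amino acid enzymes when the endoplasmic reticulum or protein synthesis is under strain. Of 32 tested members 26 were lower and 1 higher, with a median of -0.68; without replicate 2, 29 were lower and 1 higher, with a median of -0.74. HSPA5, the chaperone BiP, measured 23039, 28617 and 27496 in the double KD libraries, against 59008, 63055 and 59943 in the control libraries (-1.21 ± 0.08, adjusted p = 1.05e-09). HSP90B1, the chaperone GRP94, measured 10544, 10281 and 10802 in the double KD libraries, against 21300.3, 21876 and 21510.4 in the control libraries (-1.03 ± 0.05, adjusted p = 9.36e-11). Neither chaperone overlapped between groups. SEL1L, of the degradation machinery of the reticulum, changed by -1.39 and the co-chaperone DNAJC3 by -1.06. On the amino acid side of the response, the transcription factor ATF4 changed by -0.75 (-0.90 without replicate 2) and its targets ASNS, CHAC1 and PHGDH by -1.13, -1.08 and -1.29. SESN2, a stress-induced regulator of mTORC1, was the member called higher, at 0.48.

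The oligosaccharyltransferase and translocation genes, which serve proteins entering the same compartment, had 12 of 26 members lower and 2 higher (median -0.18), or 14 and 2 without replicate 2. RPN2, a subunit of the oligosaccharyltransferase, measured 1837, 1838 and 1827 in the double KD libraries, against 6449, 6422 and 6698 in the control libraries, with almost the same value in all 3 double KD libraries (-1.83 ± 0.06, adjusted p = 4.63e-13). OSTC, MAGT1 and SPCS3 changed by -0.96, -0.64 and -0.78, and SSR3 and SEC11C were the members called higher, at 0.37 and 0.39. A fit of the 6 libraries alone called 7 members lower. Leaving out single libraries gave 1 to 4 members higher: 4 without double KD replicate 1, and 1 without control replicate 1 or 3.

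Inflammatory mediators under NF-κB, the transcription factor of the acute inflammatory response, were lower in 12 of 22 tested members and higher in 4 (median -0.50), or 13 and 4 without replicate 2. Beside IL24, CXCL8, IL6 and IL11, the chemokines CXCL1 and CXCL2 changed by -1.41 and -1.42, the colony-stimulating factor CSF3 by -1.36 (-1.21 without replicate 2), IL1B by -1.21 and the adhesion receptor ICAM1 by -1.17. CXCL1, CXCL2 and CXCL3 are closely related in sequence and may share reads. The members called higher were not cytokines but parts of the pathway itself: NFKB1, a subunit of the factor, at 0.37, its inhibitor TNFAIP3 at 0.34, BIRC3 at 0.62 and IRAK2 at 0.56. In a list of the IL-6 family drawn up after these values were seen, 5 of 16 tested members were higher and 4 lower, or 6 and 5 without replicate 2. Besides the ligands IL6 and IL11, the receptor chains OSMR and IL6ST (gp130) changed by -1.40 and -0.72 (-0.54 without replicate 2), while the members called higher were IL6R and the signal transducers or regulators STAT3 at 0.31, SOCS3 at 0.30, JAK1 at 0.27 and TYK2 at 0.24. OSMR measured 2636, 2133 and 2621 in the double KD libraries, against 6617, 6042 and 6782 in the control libraries, with replicate 2 the lowest and no overlap (-1.40 ± 0.08, adjusted p = 2.59e-10).

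Interferon-stimulated genes, the antiviral program that interferon receptors switch on, were lower in 16 of 31 tested members and higher in 3 (median -0.29), or 18 and 3 without replicate 2. OASL measured 219, 274 and 246 in the double KD libraries, against 487, 459.5 and 526 in the control libraries (-0.99 ± 0.10) and IFIT3 1597, 1463 and 1736 in the double KD libraries, against 2611, 2485 and 2594 in the control libraries (-0.68 ± 0.07). Neither overlapped between groups. RSAD2, OAS3 and HERC6 were the members called higher, at 0.95, 0.40 and 0.34. IFITM1 measured 115, 37.1 and 142 in the double KD libraries, against 299.7, 225 and 319 in the control libraries and was lowest in replicate 2. Its change of -1.70 became -1.12 without that library, and IFITM genes are near-identical neighbours that may share reads. For MHC class I presentation 6 of 17 members were lower and 4 higher, or 8 and 4 without replicate 2. The peptide transporter chain TAP2 was among those higher, at 0.59. Reads of class I genes may be split among their relatives.

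In the plasminogen system and the metalloproteases with their inhibitors, 10 of 17 tested members were lower and 1 higher (median -0.59), or 13 and 2 without replicate 2. PLAT, the tissue plasminogen activator, measured 2092, 2196 and 2303 in the double KD libraries, against 6672, 5938 and 7017 in the control libraries (-1.57 ± 0.08), and PLAU, the urokinase activator, 3635, 4282 and 3828 in the double KD libraries, against 8666, 8743 and 8918 in the control libraries (-1.17 ± 0.07). Both activators thus lay below the controls in every double KD library. The sheddases ADAM17 and ADAM10 changed by -0.92 and -0.81, and ADAM19 was the member called higher, at 3057, 3289.8 and 3263 in the double KD libraries, against 1566, 1509 and 1605 in the control libraries (1.04 ± 0.06). Of 14 tested members of a list of integrin chains 9 were lower and 0 higher by limma (median -0.47), with the same counts without replicate 2. No member of that list was called higher by edgeR or DESeq2, and 0 were higher at an unadjusted p under 0.05. The integrin chain ITGB2, among the 14 largest rises at 1.58, was not on that list. ITGA2, a collagen receptor chain, changed by -1.04, ITGB3 by -0.77, ITGB5 by -0.56 (-0.72 without replicate 2) and ITGA3, a laminin receptor chain, by -0.47.

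Mesenchymal and matrix genes had 15 of 33 members lower and 5 higher (median -0.28), or 16 and 5 without replicate 2, and 3 higher without control replicate 1. THBS1, a matrix glycoprotein that activates latent TGF-β, measured 12919, 13158 and 12705 in the double KD libraries, against 36825, 36264 and 38672 in the control libraries (-1.53 ± 0.06, adjusted p = 4.28e-12). COL1A2, the partner chain of COL1A1 in type I collagen, changed by -1.80, opposite in sign to COL1A1 at 1.59. Fibronectin (FN1) changed by -1.0 and TGFBI by -1.05, and the members called higher beside COL1A1 were COL4A1, LAMC1, AXL and ZEB2, at 0.45, 0.51, 0.23 and 0.30 (0.45 without replicate 2). VIM differed by -0.01, which did not pass the test (adjusted p = 0.933). Of 8 fibroblast markers 4 passed the filter on low counts, 1 higher and 2 lower, and their summed level was 698 to 1154 normalised counts in the double KD libraries, highest in replicate 2, against 714 to 750.3 in the control libraries. The part of those markers in the matrix result was not tested.

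TGF-β and BMP signalling, which shares receptors and SMAD proteins with matrix control, had 13 of 30 members lower and 6 higher (median -0.17), or 14 and 6 without replicate 2. The type I receptor TGFBR1 changed by -0.88, the ligands BMP4, INHBA and TGFB1 by -0.83, -0.76 and -0.64, and SMAD5 by -0.91, while the type II receptor TGFBR2, the inhibitor SMAD7 and the target ID3 were higher, at 0.56, 0.45 and 0.66. In the Hippo pathway 8 of 22 members were lower and 6 higher, or 9 and 7 without replicate 2. CCN2, a secreted target of YAP, measured 1907, 2370.2 and 1955 in the double KD libraries, against 5197, 5577 and 5464 in the control libraries (-1.39 ± 0.07), and ANKRD1, another target, changed by -0.92. Among the DNA-binding partners of YAP, TEAD1 was lower at -1.01 and TEAD4 higher at 0.88. For EGF receptor ligands and receptors 5 of 14 members were lower and 3 higher, or 7 and 3 without replicate 2. TGFA changed by -1.0 and HBEGF by 0.61, opposite in sign, and EGFR itself by -0.01, which did not pass the test.

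Glycolysis and hypoxia genes had 18 of 36 members lower and 2 higher (median -0.17), or 23 and 2 without replicate 2. The number of members higher was 5 without double KD replicate 1, 1 without double KD replicate 3 and 0 when any 1 of the control libraries was left out. VEGFA, the vascular growth factor induced by hypoxia, measured 2978, 3269 and 2782 in the double KD libraries, against 6896, 6746 and 6786 in the control libraries (-1.18 ± 0.07, adjusted p = 8.33e-10), and the carbonic anhydrases CA9 and CA12 changed by -1.34 and -0.88. The glucose transporters SLC2A3 and SLC2A1 changed by -0.83 and -0.46, and the enzymes LDHA and PGK1 by -0.71 and -0.44. Redox and iron genes moved in both directions, with 8 of 25 lower and 5 higher, or 11 and 5 without replicate 2, and 8 higher without double KD replicate 1. TXNRD1, thioredoxin reductase, measured 9864, 10586 and 10764 in the double KD libraries, against 20827, 20259 and 20804 in the control libraries (-0.99 ± 0.06), and the ferrireductase STEAP3 changed by -1.18. TFRC, the transferrin receptor, measured 12259, 12988 and 13092 in the double KD libraries, against 5302, 6438 and 5825 in the control libraries (1.13 ± 0.08). The double KD libraries were thus below the controls for TXNRD1 and above them for TFRC, with no overlap in either.

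In cholesterol synthesis 10 of 27 members were lower and 5 higher, or 11 and 7 without replicate 2. IDI1, an isomerase of the isoprenoid branch, measured 984, 1019.7 and 1037 in the double KD libraries, against 2344, 2606 and 2414 in the control libraries (-1.27 ± 0.07) and PMVK, phosphomevalonate kinase, was higher at 0.63 (0.35 without replicate 2). CYP51A1, the lanosterol demethylase, measured 399, 1168 and 485 in the double KD libraries, against 519, 544 and 551 in the control libraries. Only replicate 2 was above the controls, and the difference of 0.18 (adjusted p = 0.734) had the other sign without it, at -0.29 (adjusted p = 0.0152).

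The subunits of the v-ATPase, the proton pump of lysosomes and other acidic compartments, were split, with 7 of 21 higher and 4 lower, or 7 and 5 without replicate 2, and 4 higher without double KD replicate 3. ATP6V1A, the catalytic A subunit, measured 1494, 2513 and 1960.1 in the double KD libraries, against 2509, 2501 and 2594 in the control libraries. Double KD replicate 2 lay among the controls and the other 2 libraries below them. The log2 fold change of -0.38 ± 0.14 (adjusted p = 0.0402) was -0.57 (adjusted p = 1.92e-04) without replicate 2, and the call was lost when any of the other 5 libraries was left out, down to -0.19 (adjusted p = 0.151) without double KD replicate 1. ATP6V0A1 and ATP6V0D1, of the membrane sector, were higher at 0.61 and 0.51, while ATP6V0A4 of the same sector was lower at -0.59. ATP6V1B2, of the cytosolic sector like ATP6V1A, was higher at 0.42. Lysosomal enzymes and membrane proteins had 8 of 48 higher and 8 lower, shares like those over all genes, with 9 and 11 without replicate 2 and 5 higher without control replicate 1. LAMP1, a major lysosomal membrane glycoprotein, measured 2128, 2197 and 2128 in the double KD libraries, against 4493, 4353 and 4418 in the control libraries (-1.04 ± 0.06, adjusted p = 8.18e-10), and the sialidase NEU1 changed by -0.95. For ESCRT and exosome genes 13 of 43 were lower and 7 higher, the same without replicate 2, but 13 higher without double KD replicate 1 and 4 without control replicate 2. RAB27A and RAB27B, which dock secretory vesicles, changed by -0.64 and -0.90, and CHMP4A by 1.15. Among autophagy genes and their regulators 9 of 41 were higher and 7 lower, or 14 and 9 without replicate 2 and 14 higher also without replicate 1 of the double KD, with the folliculin partner FNIP2 at 0.96, MTOR at 0.57 and the lysosomal adaptor LAMTOR1 at -0.64.

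Genes of proliferation and stress control were mixed. In the cell cycle list 13 of 48 were lower and 10 higher, or 17 and 9 without replicate 2. Those higher included CCND1, the G1 cyclin, at 21219.6, 24359.6 and 22726 in the double KD libraries, against 11759, 12129.5 and 11698 in the control libraries (0.94 ± 0.06, adjusted p = 1.40e-09), E2F1 at 0.53 (0.37 without replicate 2) and MCM4 at 0.52. Those lower included CENPE, a kinetochore motor, at -0.93 (-0.72 without replicate 2), the checkpoint kinase TTK at -0.59 and the mitotic transcription factor FOXM1 at -0.56. Of 26 p53 targets 8 were higher and 6 lower, or 8 and 8 without replicate 2. BTG2, SESN1 and AEN were higher at 1.60, 1.26 and 0.78, while GDF15, a secreted stress cytokine, measured 189, 236 and 196 in the double KD libraries, against 667, 603 and 624 in the control libraries (-1.61 ± 0.11). MDA-MB-231 carries a mutant p53, so the list's name is a label for these genes only. Of 24 FOXO targets 11 were lower and 4 higher, or 12 and 4 without replicate 2, and 7 were lower without control replicate 3. CCNG2, a cyclin of resting cells, measured 761, 821 and 779 in the double KD libraries, against 1690.1, 1784 and 1712 in the control libraries (-1.13 ± 0.07). Of 29 immediate-early and heat-shock genes 11 were lower and 8 higher, or 13 and 8 without replicate 2. The nuclear receptor NR4A2 changed by -1.42 and the ERK phosphatase DUSP6 by -0.97, while JUN and EGR1 were higher at 0.55 and 0.60.

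Presynaptic and neuroendocrine genes were the list with the highest median. Of 17 tested members 8 were higher and 3 lower (median 0.43), or 9 and 4 without replicate 2, and 10 further listed genes were too low to test. SYP, a synaptic vesicle membrane protein, measured 71.2, 82.3 and 76.3 in the double KD libraries, against 23, 14.9 and 24.1 in the control libraries (1.87 ± 0.18), and BSN, an active zone scaffold, 87.2, 106 and 88.6 in the double KD libraries, against 27.8, 19.6 and 20.2 in the control libraries (2.02 ± 0.22). Both were low in all libraries and did not overlap. REST and its corepressor RCOR1, which keep neuronal genes silent in other cells, changed by -0.60 and -0.55. SCG5, a secretory granule chaperone, went the other way from the vesicle genes, at -2.12. In tight junction and adhesion genes 7 of 20 were higher and 5 lower, or 6 and 7 without replicate 2, with CGN, a cytoplasmic junction protein, at 0.93 and CLDN1 at -1.40.

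**Figure D3:**
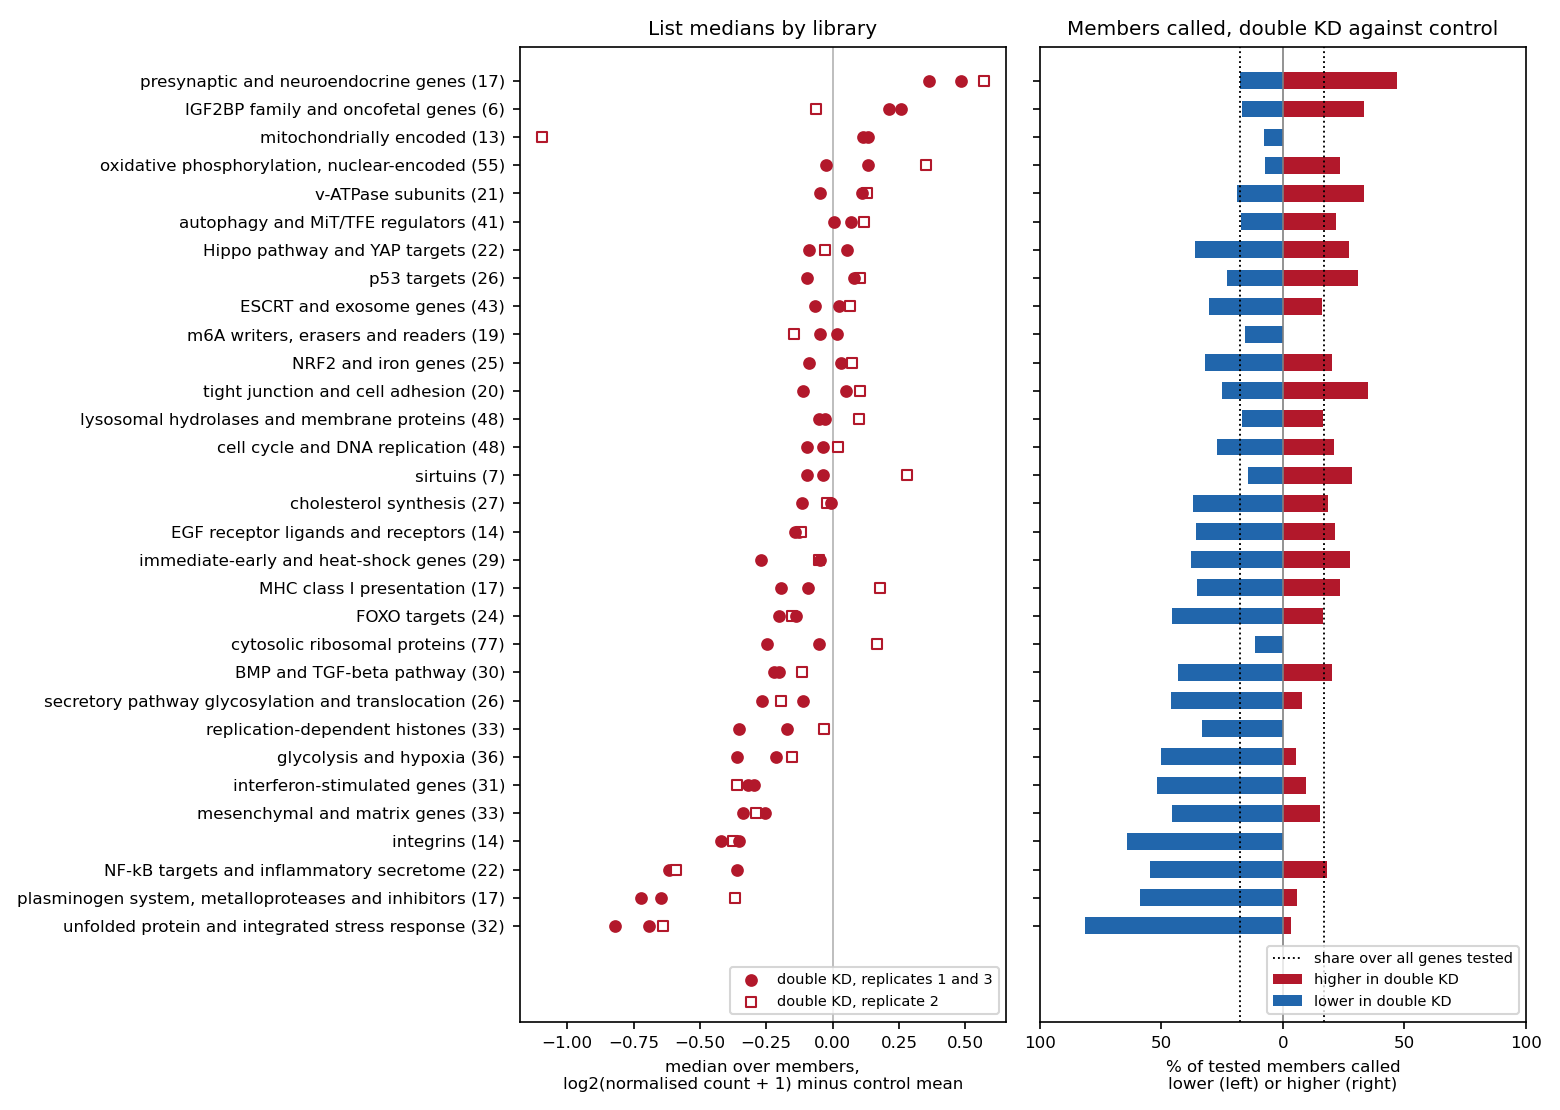
Gene lists ordered by their median without double KD replicate 2, with tested members in brackets. Left, each double KD library's median over a list's members of log2(normalised count + 1) minus the control mean, with replicate 2 as open squares; right, the percentage of members called higher (red) or lower (blue) in double KD against control, with dotted lines at the 16.7% and 17.5% over all genes tested. The stress response list has the largest share of members lower, and replicate 2 lies far from its partners for the mitochondrially encoded genes.

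Regulators of RNA fate were a further group. In a list of decapping, deadenylation and microRNA silencing genes drawn up after these values were seen, 18 of 51 were higher and 13 lower, or 17 and 12 without replicate 2. DICER1, which cuts microRNA precursors, measured 4738, 4257 and 4904 in the double KD libraries, against 2284, 2396 and 2292 in the control libraries (0.99 ± 0.07, adjusted p = 5.23e-09), and the Argonautes AGO2 and AGO4 changed by 0.66 and 0.81. TOB1, which recruits the deadenylase, and the deadenylase subunit CNOT6L changed by -0.76 (-0.59 without replicate 2) and -0.53. IGF2BP3, the paralogue of IGF2BP2, measured 1214, 977 and 1204 in the double KD libraries, against 571, 586 and 582 in the control libraries (0.96 ± 0.08, adjusted p = 4.78e-08). Together with HMGA2 it accounted for the 2 members called higher of 6 tested in the oncofetal list, in which IGF2BP2 was the 1 called lower. Without replicate 2 the list had 3 higher, with PLAG1, a zinc-finger transcription factor, called at 0.43 (adjusted p = 3.93e-04), against 0.25 with all libraries, and its median was 0.24, against 0.09. Of 19 writers, erasers and readers of N6-methyladenosine 3 were lower (4 without replicate 2) and 0 higher, and the count of 0 held for limma, edgeR and DESeq2 and at an unadjusted p under 0.05. METTL14, of the methyltransferase complex, changed by -0.59 (adjusted p = 5.32e-04), or -0.43 without replicate 2, whereas ALKBH5 and RBMX at -0.18 and -0.17 were near the threshold, and 1 member was called lower without double KD replicate 1, control replicate 2 or control replicate 3. Between 0 and 2 members were called higher when 1 library was left out: 2 without double KD replicate 1 and 1 without replicate 2. Among the 7 sirtuins SIRT2 and SIRT5 were higher, at 0.59 and 0.35, and only SIRT1 was called lower, with the same counts without replicate 2.

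The numbers of genes called among mitochondrially encoded, ribosomal protein and histone genes depended strongly on double KD replicate 2. Of the 13 mitochondrially encoded genes 1 was lower and 0 higher with all libraries, the count of 0 by limma, edgeR and DESeq2 and also at an unadjusted p under 0.05, but 6 were higher and 1 lower without replicate 2. MT-CO3, a subunit of cytochrome c oxidase, measured 70879.6, 22923 and 75099 in the double KD libraries, against 64572, 59181 and 69463 in the control libraries. Replicate 2 was far below every other library, and the difference of -0.37 (adjusted p = 0.519) became 0.18 (adjusted p = 0.0143) without it. Nuclear-encoded genes of oxidative phosphorylation had 13 of 55 higher and 4 lower, or 10 and 6 without replicate 2. Their count moved more without double KD replicate 1, to 30 higher. It was 4, 8 and 7 higher without control replicates 1, 2 and 3. NDUFS1, of complex I, was lower at -0.64 with or without replicate 2 (-0.62), and ATP5F1B, of the ATP synthase, higher at 0.37 (0.31).

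Of 77 cytosolic ribosomal protein genes 9 were lower, a share below that over all genes, but 41 were lower without replicate 2. None of the 77 was higher by limma, edgeR or DESeq2, and 2 were at an unadjusted p under 0.05. The count of those lower was 14 without double KD replicate 3 and 4 without control replicate 3, and 7 were higher without double KD replicate 1. The changes were small, such as -0.31 for RPL11 and -0.27 for RPL10. Of 33 tested replication-dependent histone genes 11 were lower, and 26 without replicate 2. None of the 33 was higher by limma, edgeR or DESeq2, and 0 were at an unadjusted p under 0.05. H2BC13 changed by -0.67 (-0.52 without replicate 2) and H1-2, a linker histone, by -0.46, whereas H4C2 measured 2337, 5626 and 2454 in the double KD libraries, against 3172, 3642 and 3199 in the control libraries and was not called with all libraries (-0.07) but was without replicate 2 (-0.48, adjusted p = 8.85e-08). Histone and ribosomal protein genes have near-identical copies and pseudogenes, so reads may be split among them.

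Among single protein-coding genes, those highest in replicate 2 against its partners also included CCDC85B at 3098, 7532 and 3419 in the double KD libraries, against 2918, 2815 and 2576 in the control libraries, TGFBR3L, TOMM5 and C4orf48. Those lowest also included ATP5MF at 982, 404 and 1164 in the double KD libraries, against 806, 868 and 965 in the control libraries. The double KD libraries disagree here, and limma called none of CCDC85B, TGFBR3L, TOMM5, C4orf48 and ATP5MF with all libraries. CCDC85B was called higher by edgeR (adjusted p = 0.0116) and DESeq2 (adjusted p = 0.0479), and TOMM5 by edgeR (adjusted p = 0.0439). Without replicate 2 limma called CCDC85B higher at 0.23 (adjusted p = 0.00199) and ATP5MF higher at 0.29 (adjusted p = 0.00205). ATP5MF had the other sign with all libraries, at -0.18. TGFBR3L, TOMM5 and C4orf48 were not called without that library either. Of the called genes that lost their call without replicate 2, the 5 of largest change were PDE5A, CCDC190, ARVCF, ARL6 and PABPC1L. PDE5A, a cyclic GMP phosphodiesterase, measured 137, 59 and 135 in the double KD libraries, against 171, 157 and 155 in the control libraries and changed by -0.64, or -0.24 (adjusted p = 0.0979) without that library. ARVCF, a catenin of adherens junctions, measured 119, 216 and 116 in the double KD libraries, against 98.6, 94.3 and 92.6 in the control libraries and changed by 0.59, or 0.31 (adjusted p = 0.0728). In both genes a single double KD library carried most of the difference.

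Among long noncoding RNAs, 154 were higher and 231 lower of 2708 tested, or 199 and 224 without replicate 2. HAGLR, transcribed from the HOXD cluster, measured 115, 87.8 and 111 in the double KD libraries, against 244, 278 and 299.9 in the control libraries (-1.39 ± 0.14), and LINC03033 changed by -1.65. Of those higher, OGFRP1 measured 123, 108 and 123 in the double KD libraries, against 51.7, 59.8 and 57.9 in the control libraries (1.05 ± 0.14) and PDCD6IP-DT, divergent from the ESCRT-associated gene PDCD6IP, changed by 0.96 (1.11 without replicate 2). No source used here states the strand setting of the counting, so a transcript and its antisense or overlapping partner cannot be told apart.

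The genes named for the double KD did not all have the same values in the single knockdowns. The 3 comparisons share the control libraries, so each gene's log2 fold changes are set side by side without counting overlaps. IL6R differed from control by 2.81 in double KD, 1.00 in SIRT1 KD and 0.89 in IGF2BP2 KD cells. In direct comparisons, in which 22.6% of genes differed between double KD and SIRT1 KD cells and 31.6% between double KD and IGF2BP2 KD cells, and which share the double KD libraries that chose the gene, IL6R in double KD cells was 1.80 above SIRT1 KD (adjusted p = 1.95e-07) and 1.91 above IGF2BP2 KD (adjusted p = 5.70e-08). GOLGA7B had 2.63 in double KD, 3.32 in SIRT1 KD and -0.18 in IGF2BP2 KD cells, and SDC2 -2.53, -2.62 and -0.09. In both the double KD lay nearer SIRT1 KD than IGF2BP2 KD. Set directly against SIRT1 KD, the double KD differed by -0.69 for GOLGA7B (adjusted p = 0.00672) and by 0.09 for SDC2 (adjusted p = 0.741). CXCL8 had -2.13, -0.06 and -1.65, and IL24 -2.47, -0.12 and -1.65, which lay nearer IGF2BP2 KD. ITGB2 had 1.58, 0.06 and 0.88. LOX had -2.23, -1.22 and -1.03, and RPL7L1 -1.95, -0.79 and -1.42, with both single knockdowns between the double KD and 0. CLDN1 had -1.40, 0.99 and -1.86, with opposite signs in the single knockdowns. PDE5A had -0.64, 0.99 and -0.68, of which the IGF2BP2 KD value was not called (adjusted p = 0.0605). Its double KD value was -0.24 and not called without replicate 2.

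**Figure D4:**
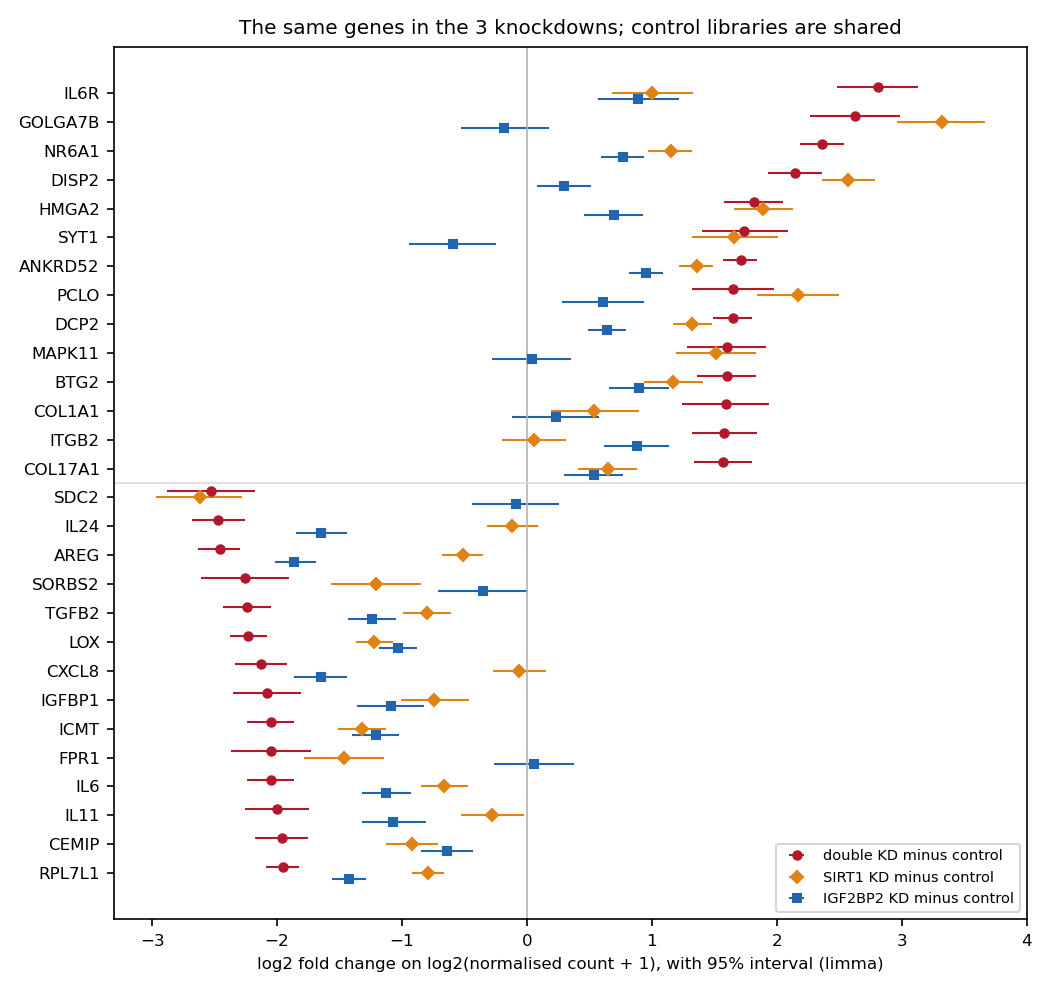
Log2 fold change with its 95% interval for the 14 rises and 14 falls of the double KD (red circles), beside SIRT1 KD (orange diamonds) and IGF2BP2 KD (blue squares), each against the same control libraries. IL24, CXCL8 and AREG lie nearer the IGF2BP2 KD values, GOLGA7B, DISP2, SYT1 and SDC2 nearer the SIRT1 KD values, and IL6R and NR6A1 lie beyond both.

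Last, the 3′ untranslated regions (UTRs) of the genes that fell were described by a short sequence. Among 14000 7-mers held by the 3′ UTR of at least 200 genes, ctcagat was the one whose holders were most often lower in SIRT1 KD than in IGF2BP2 KD cells (45.4%, against 22.3% of all genes with a 3′ UTR), a contrast of 6 libraries outside the present comparison. The pattern was known from earlier results on these data, and is not independent support. It was searched on the sense strand only. It was held by 1550 of the 13127 protein-coding genes with an annotated 3′ UTR (11.8%), of which 21% were lower and 20.6% higher in double KD cells. Of the 14 named falls 6 held it, namely SDC2, ICMT, TGFB2, LOX, RPL7L1 and IL6, and of the 14 named rises 1, GOLGA7B. The sites of those falls, with ATP6V1A and a match within the coding sequence of SIRT1, are shown because they let the shared letters be compared in their surroundings; capitals mark the 7-mer, and SDC2 is named only. They are written 5′ to 3′ on the strand of the gene, from GENCODE 29 transcripts (GRCh38): ICMT at chr1:6223622-6223644 (minus strand), TGFB2 at chr1:218443604-218443626 (plus), LOX at chr5:122066165-122066187 (minus), RPL7L1 at chr6:42888126-42888148 (plus), IL6 at chr7:22731575-22731597 (plus), ATP6V1A at chr3:113811688-113811710 (plus) and SIRT1 at chr10:67912487-67912509 (plus, coding exon).
ICMT: ttttaataCTCAGATgtgggagc
TGFB2: attttcctCTCAGATaggatgac
LOX: tacatgtaCTCAGATagttacat
RPL7L1: agacccttCTCAGATacctgtgc
IL6: atgggcacCTCAGATtgttgttg
ATP6V1A: aacctatgCTCAGATattcatcg
SIRT1: tgaagtgcCTCAGATattaatta

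Of the 1550 genes with the 7-mer 40.5% were lower and 14.8% higher in double KD cells than in control cells, with a median log2 fold change of -0.15, and 131 (8.45%) were lower by at least 2-fold. Of the 11577 genes without it 18.4% were lower and 21.4% higher, with a median of 0.02, and 305 (2.63%) were lower by at least 2-fold. Without replicate 2, 43.3% of holders and 22.6% of the others were lower. Holders had longer 3′ UTRs, with a median of 2945.5 nucleotides against 928 in the others. Within 4 equal bins of UTR length, from the shortest to the longest, 44.0%, 42.9%, 42.1% and 39.2% of holders were lower, against 14.8%, 17.7%, 19.2% and 23.5% of the others. The share was thus higher among holders in each bin, while among the others it was higher in longer UTRs. In the single knockdowns, which share the control libraries and in part chose the 7-mer, 42.8% of holders and 15.8% of the others were lower in SIRT1 KD cells, and 14.3% and 11.5% in IGF2BP2 KD cells. Over all genes with a 3′ UTR 19% were lower in SIRT1 KD and 11.8% in IGF2BP2 KD cells. The lists that fell most held the 7-mer to different extents, beside 11.8% of all genes with a 3′ UTR. It was held by 6 of the 32 stress response genes (5 of those 6 lower) and 2 of the 22 NF-κB genes (2 lower). Of the 17 plasminogen and metalloprotease genes 4 held it (4 lower), and of the 14 listed integrin chains 5 (5 lower). Holders or not, these lists had 26, 12, 10 and 9 members lower. A match is a description of letters, not a binding site.

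**Figure D5:**
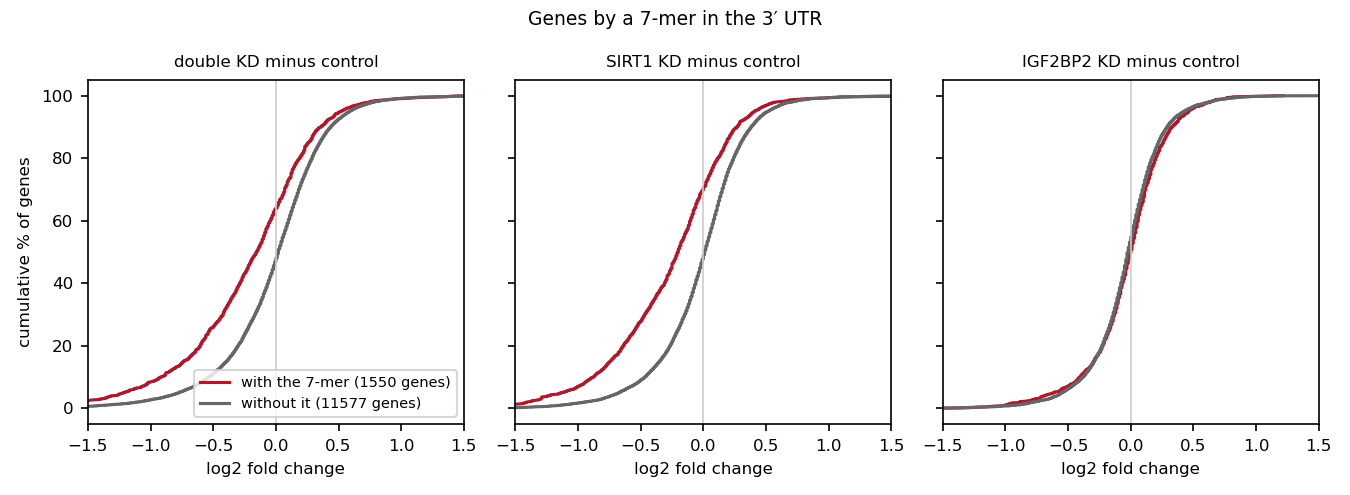
Cumulative percentage of genes by log2 fold change for double KD, SIRT1 KD and IGF2BP2 KD, each minus control, for the 1550 genes whose 3′ UTR holds the 7-mer (red) and the 11577 without it (grey). In double KD and SIRT1 KD the red curve lies left of the grey one, with medians of -0.15 and 0.02 in double KD, and in IGF2BP2 KD the curves nearly coincide.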

How the data were processed

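RNA-seq was made from total RNA of MDA-MB-231 cells; per the submitters' processing notes CASAVA, STAR, DESeq2 and GRCh38.p13 were used, without stated versions. The authors deposited a signal for 60649 Ensembl gene IDs, made from gene counts by dividing each library by its size factor, and a separate table of log2 ratios to control. Of the IDs 60507 were matched to a symbol and 58381 to GENCODE 29. The 12 named columns of the signal bear short codes, which were read as groups from their letters. The code of SIRT1 KD was taken by elimination and from the full names in the ratio table. All values in the 12 named columns were whole multiples of 1 step within 0.001 reads, so whole reads were recovered (library sizes 15243152 to 22509142). The 12 columns of a raw count table carry no names and were not used.

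limma 3.58.1 in R 4.3.3 was fitted (trend, robust) to log2(value + 1) of all 12 libraries with a mean per group, for the 17576 genes kept by edgeR's filterByExpr (minimum count 10). Calls were made at a Benjamini-Hochberg adjusted p under 0.05. The script was tested on simulated data. Alternatives were edgeR 4.0.16 (quasi-likelihood, TMM) and DESeq2 1.42.0 on recovered reads, array weights, a replicate block, a pseudocount of 8, no filter, the 2 groups alone, the deposited log2 ratios and each of the 6 libraries left out. Named genes were the 14 largest rises and 14 falls as the report describes, the 5 largest calls lost without double KD replicate 2, the 6 highest and 6 lowest genes of that library, up to 4 lncRNAs each way, SIRT1, IGF2BP2, ATP6V1A and up to 4 members of each list by adjusted p. Other list members were named after their values were seen, and some genes that the rule selects are not reported here. Members and lists were chosen with earlier results of these data known.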

Additional observations from a re-analysis of the deposited data

How the results depend on the processing

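Among the 148 genes compared across the alternatives no called gene changed direction. Of all 6018 called genes none did so without double KD replicate 2. Apart from SIRT1, IGF2BP2 and ATP6V1A, the 148 genes were chosen by change or adjusted p in the main fit, whose libraries the alternatives reuse. The lack of reversals is therefore not independent support. Genes higher and lower numbered 2939 and 3079 as reported, 3045 and 3054 with edgeR, 2923 and 2849 with DESeq2, 2527 and 2494 from the deposited log2 ratios, 3814 and 3735 with array weights, which gave double KD replicate 2 a weight of 0.125, and 2070 and 2356 when the 2 groups were fitted alone. Without a filter they numbered 2434 and 2765, with the median of all genes at -0.10. Leaving out 1 library gave 2268 to 3450 and 2442 to 3618. With a pseudocount of 8 the genes past 2-fold numbered 91 higher and 331 lower, against 158 and 542, because a larger pseudocount shrinks changes of low genes. ATP6V1A was the fixed gene that lost its call: its log2 fold change ran from -0.57 to -0.19 when 1 library was left out, and was -0.38 for the 2 groups alone (adjusted p = 0.0875), -0.38 without a filter (adjusted p = 0.199) and -0.36 from the deposited ratios (adjusted p = 0.132), and the cause was not tested. The percentage of genes lower was 43.3 with the 7-mer and 22.6 without it when double KD replicate 2 was left out, and 37.4 with it when all annotated 3′ UTRs of a gene were joined. Of the other named genes ALKBH5, ARL6, ARVCF, CCDC190, MT-ND3, PABPC1L, PDE5A and RBMX lost their call under at least 1 alternative. Same-numbered double KD and control libraries had deviations correlated at 0.077, 0.028 and 0.059, each the highest for its number but under 0.1, and the labels name no shared batch, so the numbers were not taken to pair the samples. With the replicate number as a block 2958 genes were higher and 3125 lower, and ATP6V1A was at -0.38 (adjusted p = 0.0537). Genes under about 10 reads were not tested, and double KD replicate 2 was the shallowest library.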
